A study of Rattus norvegicus with 2 samples.

Results

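The genes described here are 7 claudins (Cldn1, Cldn3, Cldn4, Cldn5, Cldn7, Cldn8 and Cldn11), occludin (Ocln) and the scaffold gene Tjp1, which encodes ZO-1, in fetal rat skin. They were chosen by name: each array row that is not a control and whose gene name, without the endings _predicted or _mapped, is 1 of these 9 symbols. The rule found 13 probes of 8 genes among 41012 probes on the array. Ocln had 0 rows under it. Both probes that carry the accession of Ocln in the RefSeq gene table are named Tpmt in the files, and the files place both on chromosome 2, where RefSeq has Ocln and not Tpmt. These 2 probes are reported as Ocln by accession, set apart from the other 8 genes where a count could depend on them, which gives 15 probes of 9 genes out of 14790 genes detected on the arrays.

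Tight junctions are belts of strands that join neighbouring epithelial or endothelial cells near their apical side and limit leakage between them. Claudins form the strands and set what can pass, some sealing the path and others opening it to ions, while occludin joins the same strands and ZO proteins tie them to actin filaments. In stratified epidermis, functional tight junctions lie in the granular layer, below the cornified layer, and mice without claudin-1 lose water through the skin and die soon after birth.

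RNA of fetal Sprague Dawley rat skin was hybridised to 2-colour arrays, with no treatment in either group. The E16 group was skin of day 16.5, pooled from 4 samples, and the E19 group was skin of day 18.5, pooled from 3 samples. Both pools were put on 2 arrays with the dyes exchanged. On the array called A here E19 carried Cy5, and on the array called B it carried Cy3. Each stage is therefore 1 pool, measured 2 times, and no test of the stages was possible. The SD beside each mean is the technical spread of the 2 arrays and holds nothing of the spread between fetuses. In whole skin, fewer cells of a type and less RNA per cell cannot be told apart.

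In each channel Feature Extraction marked 71.5% to 74.3% of spots as well above background and at most 15 as saturated, and the ratios of both arrays correlated across genes with r = 0.90. Ratios are log2 of E19 over E16 after loess normalisation, which centres them on all genes, and the median of all detected genes was 0.02. The 10 spike-in RNAs were all above 0 as means of both arrays. Centring on them takes the same value, 0.22, off the ratios of each array. The median of all genes is then -0.20. Whether equal amounts of spike-in RNA were put in both pools is not stated in the sources used here. A gene was called when it was at least 2-fold in the same direction on both arrays. By that rule 7.89% of detected genes were called, 4.14% towards E19 and 3.75% towards E16. Skin markers were present, as 11 of 11 keratinocyte markers with a probe were detected in both pools.

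Of the 9 genes, Cldn1 lay highest and Cldn7 lowest in E19 relative to E16, and the bases upstream of these genes are shown because the results turn on that contrast. The sequences are the 250 bases before the gene start in RefSeq's promoter table for GRCr8, which held 8 of the 9 genes. Capitals mark CAGGTG on either strand, the form of E-box that SNAIL and ZEB repressors are known to bind. This motif was chosen after ratios and sequences had been seen. The Cldn1 window is chr11:87926126-87926375 on the plus strand, with 59.2% G or C, and the Cldn7 window is chr10:55188420-55188669 on the plus strand, with 65.6%.
Cldn1: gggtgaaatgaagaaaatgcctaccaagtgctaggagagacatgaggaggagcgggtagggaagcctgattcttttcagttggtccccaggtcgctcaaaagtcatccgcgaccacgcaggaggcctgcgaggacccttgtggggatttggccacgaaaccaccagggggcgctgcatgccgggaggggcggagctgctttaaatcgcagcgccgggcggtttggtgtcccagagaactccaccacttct
Cldn7: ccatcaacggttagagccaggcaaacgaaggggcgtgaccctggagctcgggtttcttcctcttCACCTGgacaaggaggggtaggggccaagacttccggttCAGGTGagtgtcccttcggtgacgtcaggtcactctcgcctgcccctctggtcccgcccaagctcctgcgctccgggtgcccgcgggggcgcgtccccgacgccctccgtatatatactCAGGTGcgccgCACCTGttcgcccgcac
The Cldn7 window held 4 matches, which began 186, 147, 28 and 17 bases before the start, and the Cldn1 window held 0. Of 33469 windows of this length, 15.9% held at least 1 match, 1.84% at least 2 and 10 windows, 0.0299%, at least 4. Among the others Ocln had 2 matches, Cldn3 had 1, and Cldn5, Cldn8, Cldn11 and Tjp1 had 0. The general E-box CANNTG, which includes CAGGTG, was found 2 times before Cldn1 and 4 times before Cldn7, and in 65.5% of all windows. AACNNGTT, the core read by grainyhead-like factors of the epidermis, was found before Tjp1 alone of the 8 genes and in 3.60% of all windows. The Tjp1 window differed in make-up, with 30.4% G or C against 50.4% to 66.4% in the others. The CACCC box of KLF factors was found on either strand in 4 of the 8 genes and in 49.2% of all windows. A match is a string of letters, and no binding was measured here.

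Of the 9 genes, 1 was called towards E19, against 4.14% of all genes, and 0 towards E16, against 3.75%. The called gene was Cldn1. Cldn7 stood at the 2-fold limit towards E16, passing it on array A and missing it on array B. The other 7 genes lay between -0.29 and 0.52. In 7 of 9 genes the ratio was above 0 on both arrays (6 of 8 without Ocln), as for 42% of all genes, but with spike-in centring the mean ratios of Cldn3, Cldn5, Cldn8 and Tjp1 turned below 0. In the other 2, Cldn7 and Cldn11, it was below 0 on both, as for 36.6% of all genes. The median of the 9 was 0.18, also 0.18 without Ocln, against 0.02 for all detected genes, and with spike-in centring it was -0.04 against -0.20.

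**Figure D1:**
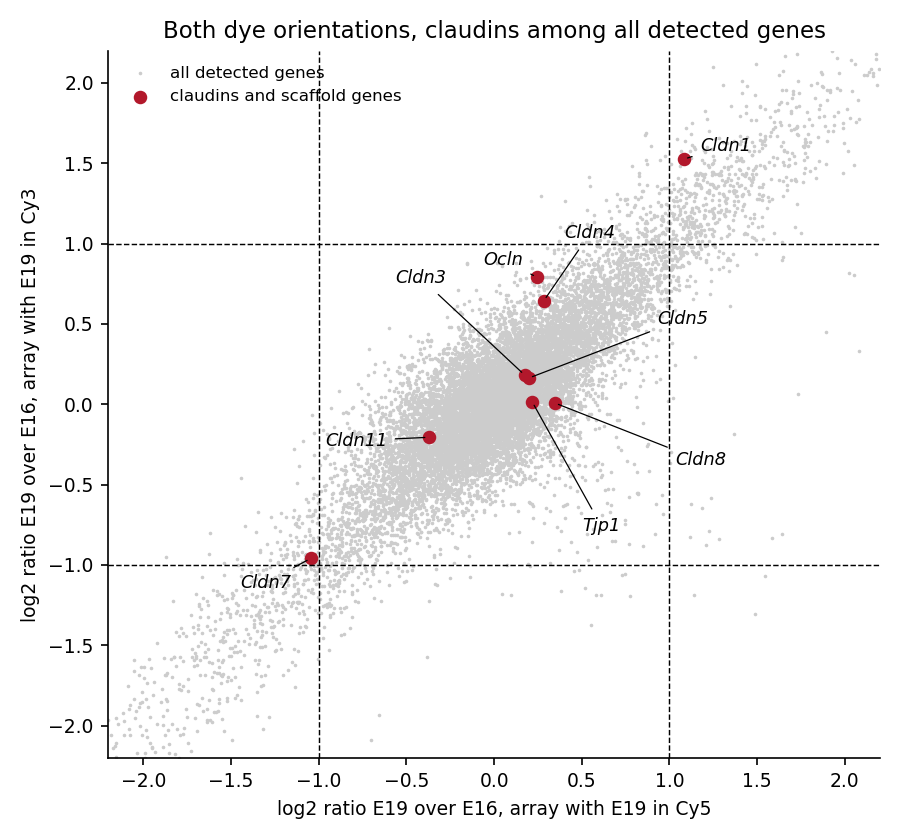
Log2 ratio of E19 over E16 on array A (E19 in Cy5, x axis) against array B (E19 in Cy3, y axis), with all detected genes in grey and the 9 genes in red, dashed lines at 2-fold, and 214 genes outside the axes. Cldn1 is the only red point past 2-fold on both arrays, and Cldn7 lies on the opposite corner of the 2-fold box.

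Claudin-1 is the claudin whose loss breaks the skin barrier, and it was the gene of the set with the highest ratio towards E19. On array A its brighter probe had a log2 normalised intensity of 11.63 in E16 and 12.71 in E19, and on array B 11.53 in E16 and 13.05 in E19. E19 was higher on each array, and the lowest E19 value lay above the highest E16 value. The ratio was 1.08 on array A and 1.52 on array B, a mean of 1.30 ± 0.31 (SD of 2 arrays) or 2.47-fold. Of all detected genes, 97.2% had a lower ratio. A second probe, which the files place 1113 bases away on chromosome 11, read 10.80 in E16 and 12.45 in E19 on array A, and 10.71 and 12.21 on array B. It also passed the rule, with ratios of 1.65 and 1.5 and a mean of 1.58 ± 0.11, or 2.98-fold. With spike-in centring the brighter probe kept its direction at 1.08 but missed 2-fold on array A (0.86), while the second probe stayed past it on both arrays (1.44 and 1.28). In the authors' deposited table the ratio of Cldn1 was 2.76-fold towards E19.

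Claudin-4 seals the path between cells in many epithelia and is known from the upper living layers of epidermis. Its brighter probe read 13.95 in E16 and 14.23 in E19 on array A, and 13.54 and 14.18 on array B. E19 was higher on each array, and E16 and E19 values did not overlap. The ratios of 0.28 and 0.64 gave a mean of 0.46 ± 0.25, or 1.38-fold, short of the limit. The second probe of Cldn4, 1129 bases away on chromosome 12, read 10.64 and 11.14 on array A and 10.57 and 11.26 on array B. Its mean of 0.60 ± 0.13, or 1.51-fold, differed from that of the first by less than the spread of the arrays. Both probes stayed above 0 with spike-in centring, at 0.25 and 0.38.

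Claudin-3, whose gene lies next to Cldn4 in RefSeq with 0 protein-coding genes between, had a smaller ratio. Its probe read 8.37 in E16 on both arrays, and 8.54 and 8.55 in E19 on arrays A and B. E19 was slightly higher on each array. The mean ratio was 0.18 ± 0.0046, or 1.13-fold, so the arrays were close together, but spike-in centring turned it to -0.04. The neighbours Cldn3 and Cldn4 thus had ratios of 0.18 and 0.46, and no test of that difference was possible.

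Claudin-7 is a claudin of many simple and glandular epithelia, also found along the sides of epithelial cells outside the tight junction. Its probe, which the files place on chromosome 10, read 9.28 in E16 and 8.23 in E19 on array A, and 9.24 and 8.28 on array B. E16 was higher on each array by a similar amount. The ratios were -1.05 and -0.96, with a mean of -1.0 ± 0.06, which is 2.0-fold higher in E16. Only 4.45% of detected genes had a lower ratio. Cldn7 passed the 2-fold rule with spike-in centring, at -1.22, and the authors' deposited table put it 2.26-fold higher in E16. The upstream window with 4 CAGGTG matches printed above belongs to this gene. Of the genes that encode repressors of this motif, named after their values were seen, Zeb1 was at -0.98 ± 0.03 and Snai1 at -0.21 ± 0.03. Snai2 was at -0.07 ± 0.36 and Zeb2 at 0.23 ± 0.34. By the rule 0 of the 4 were called, against 7.89% of all genes. Zeb1 stood at the limit, at -1.003 on array A and -0.954 on array B. The relation of these 4 genes to the ratio of Cldn7 was not tested.

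**Figure D2:**
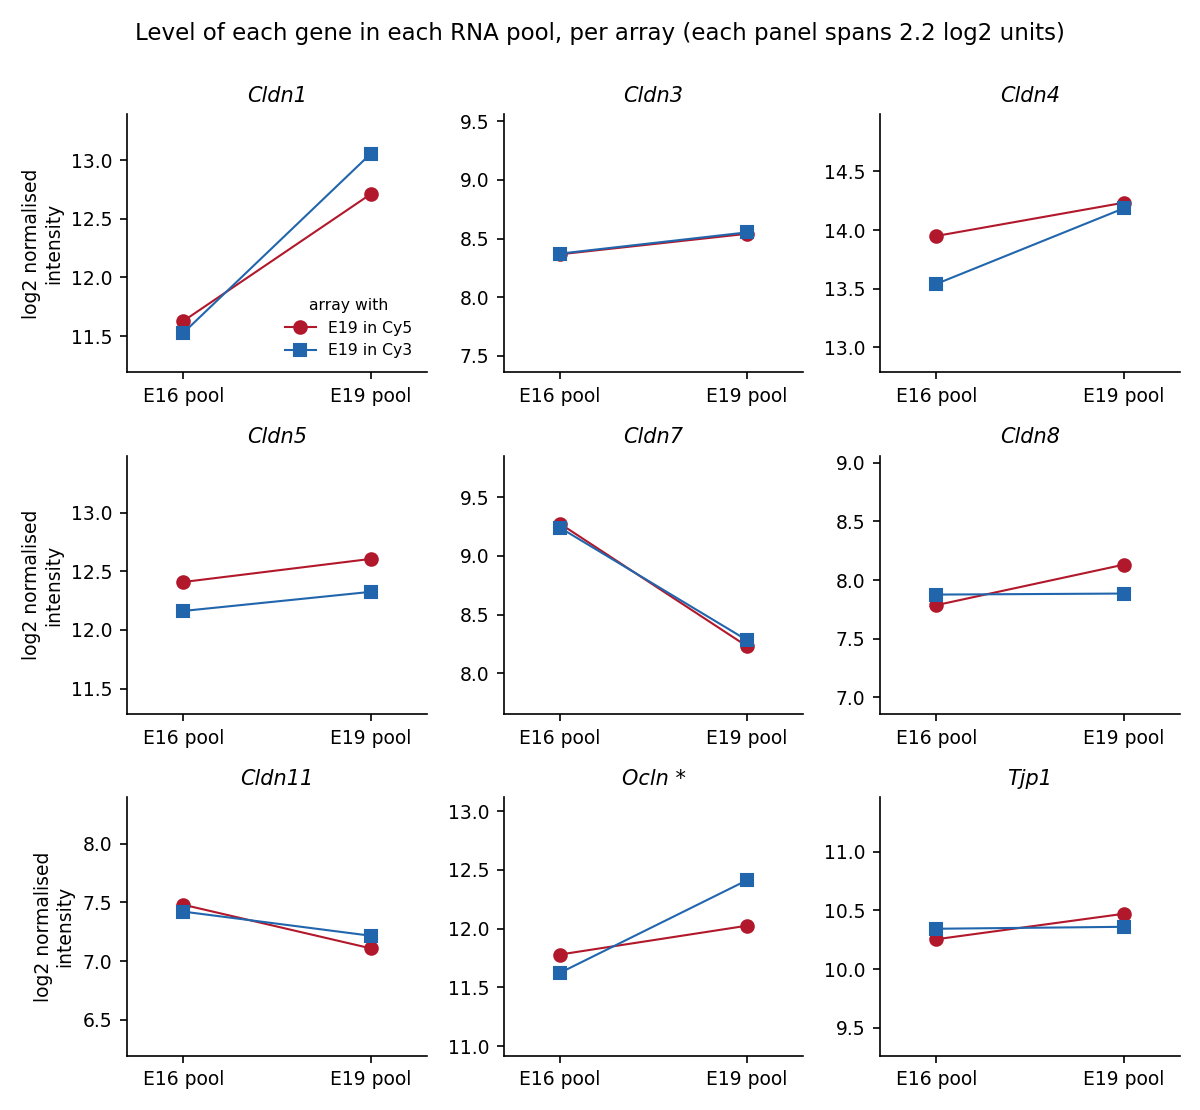
Log2 normalised intensity of the brightest probe of each gene in the E16 and E19 pools, with array A (E19 in Cy5) as red circles and array B (E19 in Cy3) as blue squares, each panel spanning the same number of log2 units. Lines climb to E19 for Cldn1 and descend for Cldn7 on both arrays; the asterisk marks Ocln, matched by accession.

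Claudin-8 is best known from kidney tubules, where it forms a barrier to cations. The probe read 7.79 in E16 and 8.13 in E19 on array A, and 7.88 in both pools on array B. Array A alone showed a difference, so the mean of 0.18 ± 0.24 was smaller than the spread of the arrays, and it was -0.041 with spike-in centring.

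Claudin-5 is the main claudin of endothelial tight junctions, such as those of the blood-brain barrier. It read 12.41 in E16 and 12.61 in E19 on array A, and 12.16 and 12.32 on array B. E19 was higher on each array, but across arrays the values of the pools overlapped. The mean ratio was 0.18 ± 0.02, or 1.13-fold, and -0.04 with spike-in centring. The endothelial markers had larger ratios as a group. Of 15 detected, all well above background in each pool, 0 were called, against 7.89% of all genes. The count was 1 with processed signals and 2 in the authors' deposited table. On both arrays 12 were above 0, against 42% of all genes. Their median was 0.47, or 0.25 with spike-in centring. Plvap of the fenestral diaphragm was at 0.86, the transcription factor Sox18 at 0.85 and the adhesion molecule Pecam1 at 0.67. The log2 of the summed level of the 15 markers was 15.66 to 15.88 in E16 and 15.93 to 16.16 in E19. Cldn5 lay within the range of these markers, 0.06 to 0.86, and its relation to endothelial cell number was not tested.

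Claudin-11 builds the tight junctions between the wraps of myelin and between Sertoli cells. Its probe was dim, with readings of 7.48 in E16 and 7.11 in E19 on array A, and 7.42 and 7.22 on array B. E16 was higher on each array, with ratios of -0.37 and -0.21 and a mean of -0.29 ± 0.12, or 1.22-fold. Its size was larger without the offset of 50, at -0.45, and -0.54 in the authors' deposited table. Of 13 myelin and glial markers, all well above background in each pool, 2 were called, both towards E16, against 3.75% of all genes. On both arrays 9 were below 0 and 4 above, against 36.6% and 42% of all genes, with a median of -0.21. Both called genes are of glia, Fabp7 of glial progenitors (-4.87) and Gfap of astrocytes (-1.12), while Mal, a proteolipid gene of myelin, stood the other way at 0.76. The log2 of the summed level of all 13 was 15.68 to 15.72 in E16 and 15.12 to 15.40 in E19. Without Fabp7, a choice made after its value was seen, it was 15.12 to 15.14 in E16 and 15.10 to 15.38 in E19, and the part of glial RNA in the ratio of Cldn11 was not tested.

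Occludin spans the membrane within the claudin strands. The brighter of the probes assigned to Ocln by accession read 11.78 in E16 and 12.03 in E19 on array A, and 11.62 and 12.41 on array B. E19 was higher on each array, but the arrays gave 0.25 and 0.79, the widest gap among the 9 genes, for a mean of 0.52 ± 0.38 or 1.43-fold. The other probe, 817 bases away, read 10.32 and 10.90 on array A and 10.35 and 10.91 on array B. Its ratios of 0.58 and 0.56 were close together, and its mean of 0.57 ± 0.01 was 1.48-fold. Both stayed above 0 with spike-in centring, at 0.30 and 0.35.

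ZO-1, the product of Tjp1, is the scaffold under tight junctions and also sits at adherens junctions. The brightest of its 4 probes read 10.25 in E16 and 10.47 in E19 on array A, and 10.34 and 10.36 on array B. The pools were nearly level on array B. The mean of 0.12 ± 0.14 was smaller than the spread of the arrays, and it was -0.10 with spike-in centring. The files place all 4 on chromosome 1, with starts within 22220 bases. The other 3 had means of 0.22 ± 0.04, 0.23 ± 0.16 and 0.09 ± 0.01. Thus all 4 lay between 0.09 and 0.23, and with spike-in centring between -0.13 and 0.01. The dimmest was well above background in E16 on 1 of 2 arrays.

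**Figure D3:**
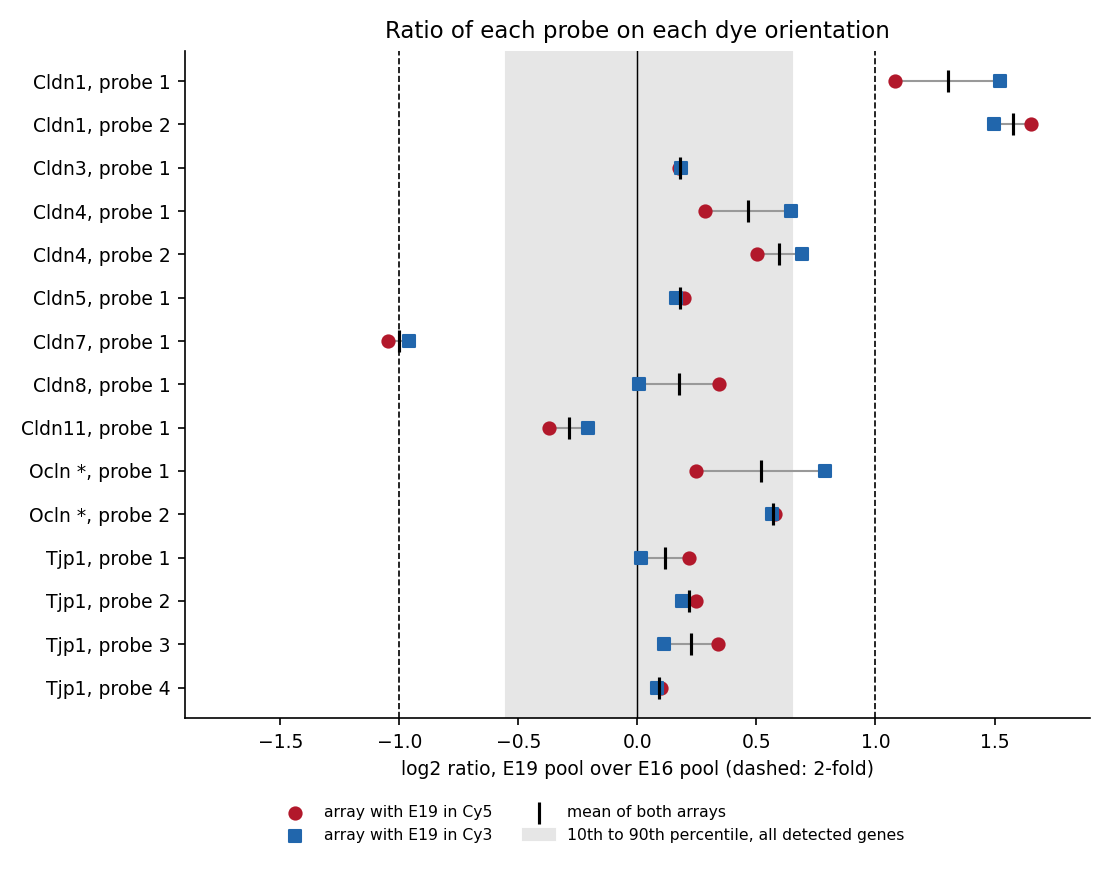
Log2 ratio of E19 over E16 for each of the 15 probes, on array A (red circles) and array B (blue squares), with the mean as a black tick, the 10 to 90 percentile range of all detected genes as a grey band and 2-fold as dashed lines. Both Cldn1 probes lie past 2-fold, the Cldn7 probe straddles it on the other side, and the means of all probes of Cldn4, Ocln (asterisk, by accession) and Tjp1 lie inside the band, while on array B Ocln probe 1 (0.79) and Cldn4 probe 2 (0.69) lie beyond it.

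Other claudins gave a mixed picture. Of 13 with a probe, 7 were detected and 0 were called, against 7.89% of all genes. On both arrays 2 were above 0 and 3 below, against 42% and 36.6% of all genes, with a median of 0.03. Cldn10, which forms ion channels in kidney, sweat gland and other secretory epithelia, read 10.09 in E16 and 11.05 in E19 on array A, and 9.93 and 11.05 on array B. At 0.95 and 1.11, with a mean of 1.03 ± 0.11, it just missed the rule on array A. Cldn9, next to Cldn6 in the genome, stood the other way at -0.86 ± 0.11, with 12.12 in E16 on both arrays and 11.18 and 11.34 in E19. Cldn23 was at 0.55 ± 0.17 and Cldn14 at -0.45 ± 0.23. The probes for Cldn2, Cldn15, Cldn16, Cldn17, Cldn18 and Cldn22 were not detected. With spike-in centring the median turned to -0.18 and 1 gene, Cldn9, was called towards E16, and 1 was called towards E19 with processed signals and in the authors' deposited table.

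Among other membrane proteins of the junction, the called gene was Crb3, whose product anchors the apical polarity complex. It read 11.36 in E16 and 12.55 in E19 on array A, and 11.22 and 12.65 on array B, with a mean of 1.31 ± 0.17 or 2.47-fold. E19 was higher on each array. Of 9 detected, 1 was called towards E19 and 0 towards E16, against 4.14% and 3.75% of all genes. On both arrays 5 were above 0 and 4 below, against 42% and 36.6% of all genes, with a median of 0.28. Lsr, which recruits tricellulin to tricellular corners, was at 0.76 ± 0.07, and F11r, the junctional adhesion molecule A, at 0.70 ± 0.04. Esam, an endothelial adhesion molecule that is also in the endothelial marker list, was at 0.58 ± 0.01. Clmp, an adhesion molecule of the same wider family, was at -0.67 ± 0.32. The count of 1 fell to 0 with spike-in centring and with median centring in place of loess, and with spike-in centring the median was 0.06. The probe for Marveld2, which encodes tricellulin, was not detected.

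Of the plaque and polarity proteins, Tjp3 was called. Tjp3, which encodes ZO-3, read 9.27 in E16 on both arrays, and 10.50 and 10.47 in E19. The mean was 1.22 ± 0.01, or 2.32-fold, against 0.12 ± 0.14 for Tjp1. Over 23 genes detected, 1 was called towards E19 and 0 towards E16, against 4.14% and 3.75% of all genes. On both arrays 10 were above 0 and 8 below, against 42% and 36.6%, and the median of 0.02 was that of all genes. Of the polarity genes, Pard6a was at -0.80 ± 0.03 and its relative Pard6g at 0.70 ± 0.14. Patj, a multi-PDZ scaffold, was at 0.68 ± 0.29. The count of 1 fell to 0 with spike-in centring and with median centring and was 3 in the authors' deposited table, and with spike-in centring the median turned to -0.20.

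Genes that control or process junction proteins in epidermis stood higher in E19 for the most part. Of 15 detected, 4 were called towards E19 and 0 towards E16, against 4.14% and 3.75% of all genes. On both arrays 14 were above 0 and 1 below, against 42% and 36.6% of all genes, and the median was 0.61. The called genes were the transcription factors Klf4 (1.46 ± 0.11), Ovol1 (1.39 ± 0.19) and Grhl1 (1.23 ± 0.02) and the membrane protease gene Prss8 (1.41 ± 0.44). Mice without Klf4 or without Prss8 in the epidermis are known for a failed skin barrier. Klf4 read 14.80 in E16 and 16.18 in E19 on array A, and 15.04 and 16.58 on array B. Prss8 read 12.53 and 13.62 on array A and 12.37 and 14.09 on array B. Both were higher in E19 on each array with no overlap between the pools. Grhl3 (1.02 ± 0.10) just missed the rule on array B, and St14, the matriptase that acts with Prss8, was at 0.94 ± 0.01. Epcam, which encodes a membrane protein that binds claudin-7, was at 0.15 ± 0.10. With spike-in or median centring 2 of the 15 were called, 6 were in the authors' deposited table, and with spike-in centring the median was 0.39.

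**Figure D4:**
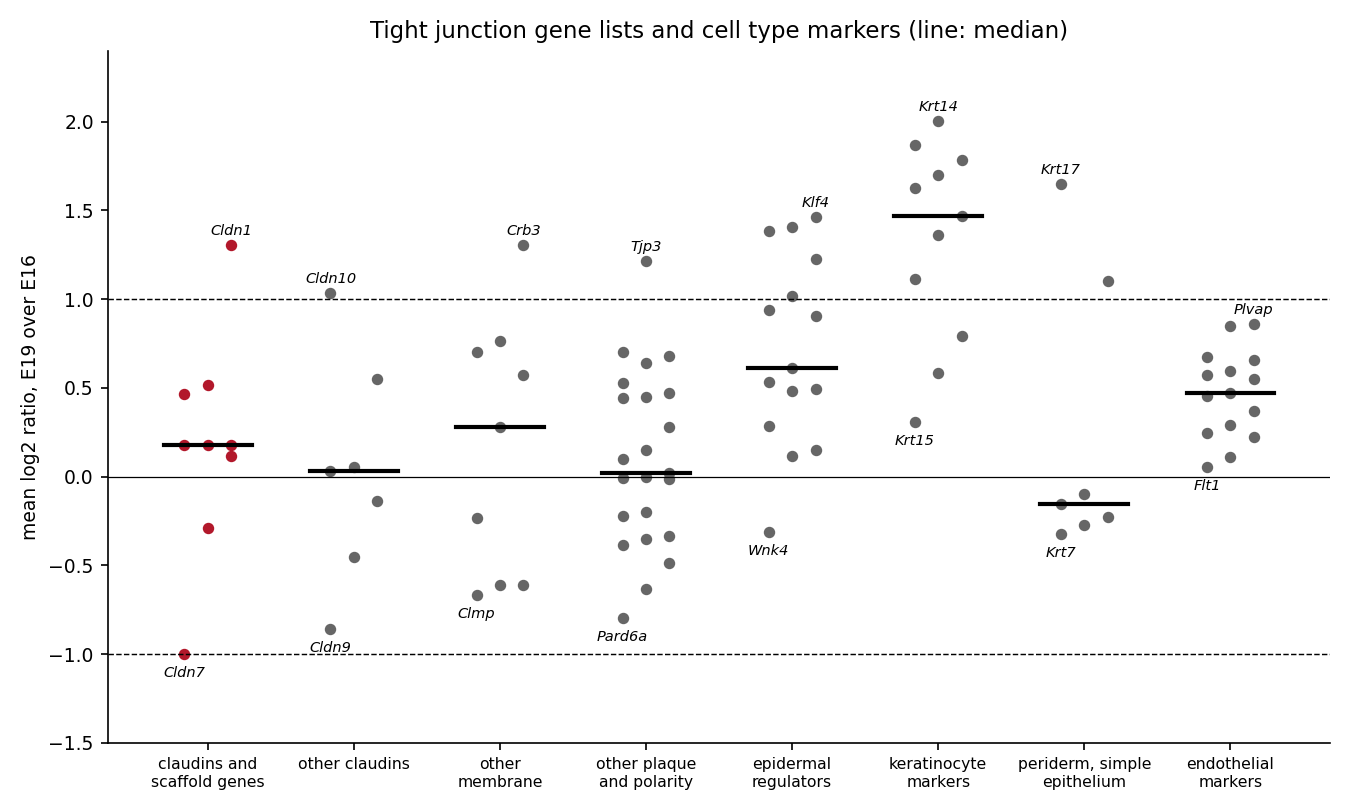
Mean log2 ratio of E19 over E16 of each detected gene, by list, with the median as a black line, dashed lines at 2-fold and the genes at both ends named. The 9 genes in red have a median of 0.18 (-0.04 with spike-in centring). It is 0.61 (0.39) for epidermal regulators and 1.47 (1.25) for keratinocyte markers. Periderm and simple epithelium markers have -0.15 (-0.37) and endothelial markers 0.47 (0.25).

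Markers of the cells that could carry these transcripts differed between the pools. Of all genes, 4.14% were called towards E19 and 3.75% towards E16. Of 11 keratinocyte markers, 6 were called towards E19 and 0 towards E16, with a median of 1.47, and the log2 of their summed level was 18.40 to 19.62 in E16 and 20.44 to 20.53 in E19. The count of 6 fell to 0 with median centring in place of loess and to 4 with spike-in centring. The largest means, Krt14 (2.0 ± 1.79), Krt10 (1.87 ± 1.04) and Krt1 (1.79 ± 1.56), had wide spreads, with far larger ratios on array A than on array B. These genes were the brightest of the list in E19, at 18.06 to 18.56, and so weigh most in its summed level there. With saturated spots left out the median of the list was 1.41 and the count stayed at 6. Krt5 of the basal layer was at 1.11 ± 0.02. Periderm and simple epithelium markers had a median of -0.15 over 7 genes, with Krt17 (1.65) and Krt13 (1.1) called towards E19 and Krt7 at -0.32, and a log2 summed level of 15.68 to 15.91 in E16 and 15.64 to 15.70 in E19. Of that list 1 gene was called with median or spike-in centring. All genes of both epithelial lists were well above background in each pool. Cldn1 stood near the median of the keratinocyte list, Cldn3, Cldn4, Ocln and Tjp1 below it, and Cldn7 under every gene of both epithelial lists. The part of epithelial cell number in these ratios was not tested.

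Markers of other tissues also differed between the pools, where 4.14% of all genes were called towards E19 and 3.75% towards E16. Of 9 neuron markers, 7 were called towards E16 and 0 towards E19, with a median of -2.98 and a log2 summed level of 15.83 in E16 on each array and 13.47 to 13.51 in E19, and Syt1 was not well above background in E19. Cartilage markers had 4 of 6 called towards E16, with a median of -1.60 and a log2 summed level of 14.67 to 14.70 in E16 and 13.00 to 13.09 in E19. Towards E19, 5 of 6 fat cell markers were called, with a median of 1.98 and a log2 summed level of 11.99 to 12.08 in E16 and 15.69 to 15.70 in E19. Fibroblast markers had a median of 0.68, with 1 of 9 called towards E19 (0 with median centring), and a log2 summed level of 18.31 to 18.94 in E16 and 19.24 to 19.46 in E19. Their part in the ratios of the junction genes was not tested.

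Both ends of the set were the same under every setting tried, while the order of the genes between them was not. Cldn1 was between 1.08 and 1.52 over all settings and Cldn7 between -1.22 and -0.96, so they remained the highest and lowest of the 9. Cldn4 and Ocln stayed above 0 throughout, at 0.25 to 0.64 and 0.25 to 0.79, and Cldn11 stayed below 0, at -0.55 to -0.21. Spike-in centring was the setting that turned the mean ratios of Cldn3, Cldn5, Cldn8 and Tjp1 below 0. With median centring in place of loess, the spread of the arrays exceeded the mean in each of these genes. Cldn3 was then at 0.19 ± 0.26, Cldn5 at 0.13 ± 0.67, Cldn8 at 0.21 ± 0.37 and Tjp1 at 0.08 ± 0.65.

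**Figure D5:**
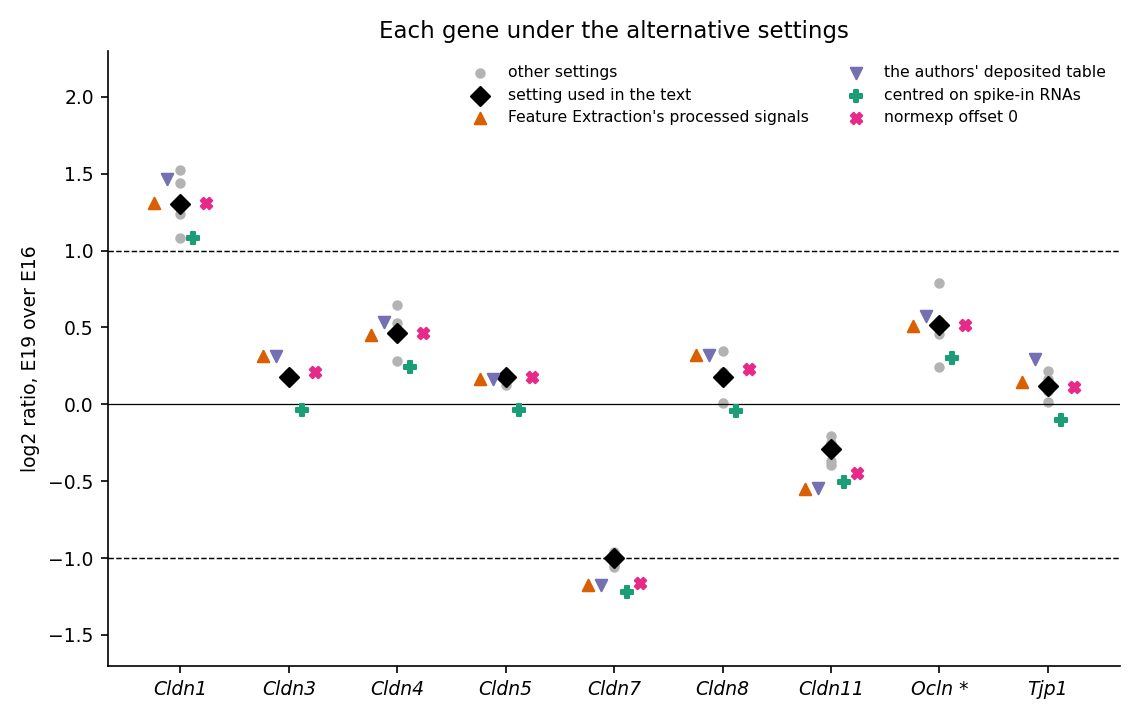
Log2 ratio of E19 over E16 of each gene under the setting used in the text (black diamonds) and the alternatives, with dashed lines at 2-fold. Cldn1 stays above 2-fold as a mean and Cldn7 stays near or below the line at -1, while spike-in centring puts Cldn3, Cldn5, Cldn8 and Tjp1 below 0; the asterisk marks Ocln, matched by accession.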

How the data were processed

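Spot intensities were read with Agilent Feature Extraction 9.5.1.1, per the file headers; mean spot intensity and local median background were deposited uncorrected. Per the labels' protocols, RNA was extracted with NucleoSpin RNA II and the dyes were put in with Agilent's Low RNA Input Linear Amp Kit. The authors' deposited table holds log10 ratios 1 for each sequence over both arrays (how they were combined is not given in the sources used here), read here as log2 of E19 over E16. Its direction was taken from its correlation with array A (r = 0.89) and with array B after turning (r = 0.89).

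Background was corrected with normexp (offset 50) and each array's log2 ratios were normalised by loess with control spots at weight 0, in limma 3.58.1 and R 4.3.3. Per-channel levels were then Aquantile-normalised. Outlier spots (192 to 318 per array) were left out and saturated spots kept. A probe was detected when well above background in at least 1 pool on both arrays, and a gene was represented by its brightest detected probe. Genes were named through RefSeq's GRCr8 table: 10735 probes by accession, 5571 by symbol and 3729 by synonym, while 3371 kept the file's name and 17606 had none. Probe positions are those of the files, which name no build. With 1 pool per stage there is no p-value; both arrays lay on the same slide, so no batch could be examined. Summaries used Python 3.11.15, numpy 2.4.6, pandas 2.3.3 and matplotlib 3.10.9.

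The genes and lists were chosen with earlier results of these data known. Named were every member, in each junction list the genes called and the 4 largest ratios, and in each marker list the 3 largest. The largest of the neuron, cartilage, fat and fibroblast lists, and a few other list genes, are not reported here. Genes outside this rule (Epcam, St14, Grhl3, Esam, Krt5, Mal, Syt1, genes not detected and the SNAIL and ZEB genes) were chosen after their values were seen. Alternatives covered background, normalisation, centring, probe choice, spot and detection filters, fold limit, single arrays and the deposited table.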

Additional observations from a re-analysis of the deposited data

How the results depend on the processing

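No paired analysis was possible because each stage has 1 pool, so the groups share 1 replicate number. Of 117 values of the 9 genes under alternatives, 41 were identical to those reported and 18 were single arrays, which cannot lie beyond the SD of the arrays. Of the other 58, 40 moved by less than that SD and 18 by more, and 0 of the 117 moved by over 1.5 times as a fold. Spike-in centring gave Cldn3 -0.040, Cldn5 -0.038, Cldn8 -0.041, Tjp1 -0.10, Cldn7 -1.22 and Cldn11 -0.51. At normexp offset 0, Cldn3 was 0.21, Cldn7 -1.16 and Cldn11 -0.45. Feature Extraction's processed signals gave Cldn3 0.31, Cldn7 -1.18 and Cldn11 -0.55. The authors' deposited table gave Cldn3 0.31, Cldn7 -1.18, Cldn11 -0.54 and Tjp1 0.29. Median centring gave Cldn3 0.19 ± 0.26 and Cldn5 0.13 ± 0.67, and no background subtraction Cldn3 0.20. The moves with spike-in centring are the 0.22 taken off every ratio. Where a value moved under the other settings, the cause was not tested.

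Cldn7 was called towards E16 (1 gene in place of 0) at 1.5-fold, with processed signals, spike-in centring, no background subtraction, offset 0 and the deposited table; over single arrays the count was 0 to 1. Cldn1 was not called (0 genes) at 3-fold or with spike-in centring. Against 613 genes towards E19 and 554 towards E16, processed signals gave 1014 and 889, the authors' deposited values 1195 and 997, a 1.5-fold limit 1413 and 1138, a 3-fold limit 178 and 230, spike-in centring 389 and 810, and median centring 367 and 439. The share towards E19 was 52.5%, and 32.4% with spike-in centring. The number of arrays limits the precision, and Cldn8 and Cldn11 were dim.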
